A study of Mus musculus with 18 samples.

Results

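The 10 genes followed here encode interleukin receptor subunits, and they were compared across naive CD4 T cells that lacked or overexpressed microRNAs of the miR-23 clusters. They are Il2ra, Il2rb, Il2rg, Il4ra, Il6ra, Il6st, Il7r, Il10ra, Il18r1 and Il21r. They were chosen by name, and all 10 were found among the 23951 genes of the expression table and among the 11099 genes that were tested. RNA-seq was made from C57BL/6 mouse T cells sorted as naive CD4+CD25- cells, with 3 libraries for each of 6 genotypes, 18 in all. WT cells were the controls. DKO cells carried a T cell-specific deletion of both the miR-23a and the miR-23b cluster. In cells called miR-23 Tg, miR-24 Tg or miR-27 Tg a single member of the cluster was overexpressed in T cells, and in cluster Tg cells the whole miR-23 cluster was. The genotype field of the labels adds "Tg" to WT and DKO as well, and the titles do not. No source used here gives the promoter or Cre behind the T cell specificity, or the age and sex of the mice. Since the labels do not state whether 1 animal gave 1 library, the p-values refer to the spread among libraries only, and that spread may be technical.

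Interleukin receptors are assembled from chains that are shared between cytokines. Il2rg encodes the common gamma chain, which pairs with Il2rb for IL-2 and IL-15, with Il7r for IL-7, with Il4ra for IL-4 and with Il21r for IL-21. Il2ra encodes CD25, the chain that gives the IL-2 receptor its high affinity. Il6st encodes gp130, the signalling chain that IL-6 shares with other cytokines, and Il6ra encodes the chain that binds IL-6. Il10ra and Il10rb together form the IL-10 receptor, and Il18r1 and Il18rap the IL-18 receptor. Naive CD4 T cells depend on IL-7 for survival and carry high Il7r and Il6ra, whereas Il2rb, Il10ra and Il18r1 rise in T cells that have met antigen. MicroRNAs pair through their seed, bases 2 to 8, with sites in the 3′ UTR of messenger RNAs and usually lower them. The sort bears on 1 member directly, because the gate excluded cells with CD25, the protein of Il2ra, at the surface.

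The libraries differed in several ways that touch the results below. Absolute depth is unknown, because only normalised values (RPKM, reads scaled to transcript length and to the reads of the library) were used. The depth relative to WT replicate 1 ran from 0.634 to 1.47, and between 10103 and 10615 genes reached 1 RPKM. In the transgenic libraries the RPKM listed for the hairpin genes matched the labels: Mir27a was at 27980.5 to 234933 in miR-27 Tg against 95.6 to 194 in WT, Mir24-2 at 13888 to 49237 in miR-24 Tg against 18.9 to 46.0, and Mir23a at 64024 to 74236 in miR-23 Tg against 0 to 279.5. DKO libraries were all listed at 0 for Mir24-2, at 36.3, 39.5 and 0 for Mir27a and at 0, 0 and 76.1 for Mir23a, the last within the WT range. The third libraries of miR-27 Tg and DKO stood apart on the first principal component (123 and 51.3, against -20.8 to -0.32 in the other 16) and had the highest mean RPKM over 80 ribosomal protein genes (1338 and 936, against 238 to 527). The second component placed all 9 libraries of WT, miR-23 Tg and DKO (-30.2 to -16.4) apart from all 9 miR-24 Tg, miR-27 Tg and cluster Tg libraries (6.61 to 43.9). The labels name no batch, so this division and the genotypes cannot be told apart in any comparison that crosses it. Xist without the Y-linked Ddx3y reached 1 RPKM in 12 libraries and Ddx3y without Xist in 5, and every genotype except miR-23 Tg had libraries with Ddx3y. Cluster Tg replicate 2 held both, Xist at 45.8 RPKM and Ddx3y at 20.1 RPKM. Sex was not a term of the fit, and its part in the results was not tested. Of the miR-23 Tg columns, 2 carry the same header and are called columns 3 and 4. No gene at 1 RPKM or more had identical values in them, and n = 3 for miR-23 Tg assumes that they are separate samples.

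The mature microRNAs are shown because their seeds define the sites searched for in the members. The sequences are from RefSeq with coordinates of GRCm38.p6, and capitals mark the seed. miR-27a and miR-27b have the same seed.
miR-23a-3p: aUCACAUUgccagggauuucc
miR-24-3p: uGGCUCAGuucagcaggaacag
miR-27a-3p: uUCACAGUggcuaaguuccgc
miR-27b-3p: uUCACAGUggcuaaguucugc

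The 3′ UTRs of the members were searched, on the transcript strand, for the 7 bases that pair with the seed, for the same followed by A (an 8mer), and for a shorter kind, the match to bases 2 to 7 followed by A. For miR-23 the match is AATGTGA and the shorter kind is ATGTGAA. For miR-24 they are CTGAGCC and, as the shorter kind, TGAGCCA. For miR-27 they are ACTGTGA and, as the shorter kind, CTGTGAA. Sites that overlapped were counted once, as the longest. A miR-24 match was found in 6 of 10 members (11 matches), a miR-27 match in 6 (7 matches) and a miR-23 match in 2 (2 matches). Among all tested genes with an annotated 3′ UTR, 23.4%, 25.8% and 22.0% held such a match, but the median length of those UTRs was 936 bases. Among the members only Il2rg (474 bases) and Il21r (579 bases) were shorter than that, and Il6st (5641 bases) was the longest. Il2rg and Il4ra held no match. A match is a description of the letters and not a tested site.

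The following sites are a selection from the 6 members on which the results turn. Each is printed 5′ to 3′ on the transcript strand with the match in capitals. The coordinates are those of the match in GRCm38, from GENCODE M21 transcripts, whereas the expression files use mm9. Il2ra carries an 8mer for miR-24 (chr2:11691953-11691960, plus strand) and an 8mer for miR-27 (chr2:11692994-11693001). Il2rb carries 2 miR-24 matches (chr15:78480022-78480028 and chr15:78479629-78479635, minus strand). Il10ra carries 3 miR-24 matches (chr9:45255181-45255187, chr9:45255096-45255102 and chr9:45254295-45254301, minus strand) and a miR-27 match (chr9:45255421-45255427). Il18r1 carries 2 miR-24 matches (chr1:40499280-40499286 and chr1:40499676-40499682, plus strand). Il7r carries an 8mer for miR-27 (chr15:9506308-9506315, minus strand) and Il6st a miR-27 match (chr13:112506456-112506462, plus strand). All lie in 3′ UTRs, and the lines that follow keep this order.
Il2ra, miR-24: tagttctcttaaccaCTGAGCCAtctctac
Il2ra, miR-27: gggaaggcccaacccACTGTGAAaggcacc
Il2rb, miR-24: ggagtccactggaacCTGAGCCccgagtc
Il2rb, miR-24: gttagcaagaggagaTGAGCCAgtgcaga
Il10ra, miR-24: taggtctgaagtcagCTGAGCCtggatgt
Il10ra, miR-24: tagaagggcagagcaTGAGCCAggtttaa
Il10ra, miR-24: caaggctgctgatccCTGAGCCcagagtt
Il10ra, miR-27: cttttctgcagacctACTGTGAccagcta
Il18r1, miR-24: ccgaggcattttctaTGAGCCAatcttta
Il18r1, miR-24: tgcttgctgtttttaTGAGCCAattctgg
Il7r, miR-27: gtactatgtccaaatACTGTGAAatataat
Il6st, miR-27: tatcagacagtggtgCTGTGAAcgttgca

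Over the 6 genotypes, Il10ra, Il18r1, Il2rb and Il2ra changed, and the other 6 members did not pass the test. In limma's F test on log2(RPKM + 1) the Benjamini-Hochberg adjusted p was 8.67e-06 for Il10ra, 0.000362 for Il18r1, 0.00968 for Il2rb and 0.0284 for Il2ra. These are 4 of 10 members, beside 19% of all tested genes. Of the 4, Il2ra passed the filter for testing through the genotypes in which it was high. The members covered a wide range of levels: Il2rg was the highest in 14 libraries and Il7r in the other 4, and Il2ra was the lowest in all 18. Between the highest and the lowest library Il2ra varied 19.5-fold, Il18r1 10.97-fold, Il6ra 10.3-fold and Il2rb 9.56-fold, and Il4ra, Il21r and Il2rg 1.74-fold, 1.43-fold and 1.35-fold. The plot of the members by library shows these spreads. Where libraries are said to lie all above or all below WT, 22.1% of tested genes did so upward and 20.6% downward in cluster Tg, whereas miR-24 Tg had 17.5% and 16%, miR-27 Tg 15% and 12.3%, and miR-23 Tg 15.2% and 13.6%.

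**Figure D1:**
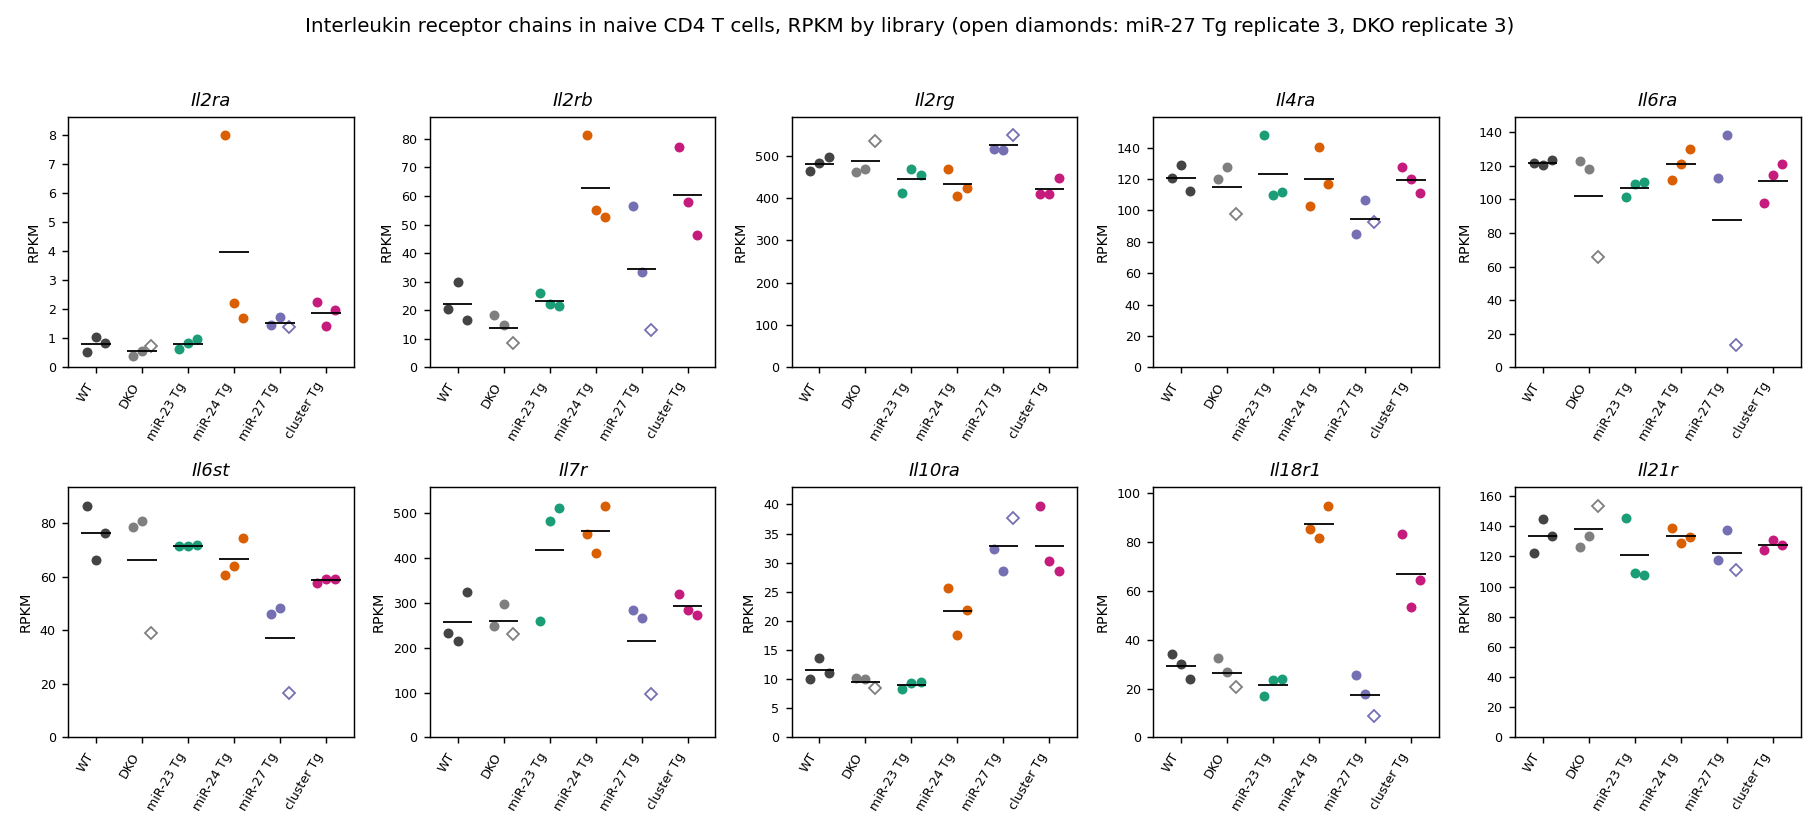
RPKM of the 10 receptor subunit genes (y axis, own linear scale in each panel) in each of the 18 libraries by genotype (x axis). Points are libraries, the line is the mean of 3, and open diamonds are miR-27 Tg replicate 3 and DKO replicate 3. Il10ra sits at 8.32 to 13.6 in WT, DKO and miR-23 Tg and at 17.6 to 39.8 in the other genotypes, whereas Il2rg, Il4ra and Il21r lie close together in all.

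Il10ra, the ligand-binding chain of the IL-10 receptor, was higher in the cluster, miR-27 and miR-24 transgenics than in WT. Its level was 10.05, 13.6 and 10.99 RPKM in WT, 10.1, 10.1 and 8.48 in DKO, and 8.32, 9.33 and 9.44 in miR-23 Tg. It was 25.7, 17.6 and 21.8 RPKM in miR-24 Tg, 32.3, 28.6 and 37.7 in miR-27 Tg, and 39.8, 30.3 and 28.5 in cluster Tg. Every library of the last 3 genotypes lay above every library of the first 3, as 1.88% of tested genes did (0.496% did the reverse). Against WT the difference in log2(RPKM + 1) was 1.43 ± 0.16 (SE) in cluster Tg (limma adjusted p = 0.000118), 1.43 ± 0.16 in miR-27 Tg (adjusted p = 0.000149) and 0.85 ± 0.16 in miR-24 Tg (adjusted p = 0.00904). It was 1.67 in cluster Tg against DKO (adjusted p = 2.67e-05). The miR-24 Tg call was lost without miR-24 Tg replicate 1 (adjusted p = 0.0555) or WT replicate 1 (0.0547), and the miR-27 Tg call when only these 2 genotypes were fitted (0.0524). Without the libraries that stand apart, all 4 were called (adjusted p from 5.81e-05 to 0.0026). In bulk RNA a change in the number of cells that carry a transcript and a change in RNA per cell cannot be told apart, and this holds for every member.

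The levels of Il10ra were also compared among these 3 transgenics. Cluster Tg (32.9 ± 6.08 RPKM, SD, n = 3) and miR-27 Tg (32.9 ± 4.59) did not differ beyond their spread, and the libraries of both lay above those of miR-24 Tg (21.7 ± 4.05). miR-27 Tg exceeded miR-24 Tg by 0.58 on the log2 scale (limma adjusted p = 0.0295), with no overlap of libraries, and the difference of 0.58 between cluster Tg and miR-24 Tg did not pass (adjusted p = 0.0860). The shares of all tested genes without overlap of libraries between these transgenics were not counted. The miR-27 Tg call was narrow: the adjusted p was 0.124 without miR-24 Tg replicate 2, 0.0767 without miR-24 Tg replicate 3 and 0.0740 without miR-27 Tg replicate 3. Below them stood WT (11.6 ± 1.85), DKO (9.56 ± 0.934) and miR-23 Tg (9.03 ± 0.617), neighbours whose libraries overlapped. The 3 miR-23 Tg libraries all lay under the 3 WT libraries in Il10ra, at a difference of -0.32 (adjusted p = 0.718).

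The other chain of the IL-10 receptor, Il10rb, moved less. It stood at 28.4 ± 1.80 RPKM in WT, 30.8 ± 3.30 in miR-27 Tg, 32.3 ± 4.59 in miR-24 Tg and 37.7 ± 2.89 in cluster Tg, and passed the test in cluster Tg against DKO (0.47 on the log2 scale, limma adjusted p = 0.0201) but not in any comparison with WT. The ratio of Il10ra to Il10rb was 0.353 to 0.452 in WT, 0.297 to 0.407 in DKO and 0.326 to 0.367 in miR-23 Tg. It was 0.625 to 0.695 in miR-24 Tg, 0.770 to 0.974 in cluster Tg and 1.03 to 1.11 in miR-27 Tg. The 2 transcripts were thus near parity in miR-27 Tg libraries, and Il10ra was the scarcer in every WT library. The ligand Il10 did not reach the level for testing and was at most 0.5 RPKM in any library.

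Il18r1, the chain that binds IL-18, was higher in miR-24 Tg and cluster Tg cells and not in miR-27 Tg cells. It was 34.3, 29.9 and 23.9 RPKM in WT, 32.4, 26.8 and 20.6 in DKO and 16.8, 23.6 and 23.9 in miR-23 Tg. In miR-24 Tg it was 85.3, 81.8 and 94.98 RPKM and in cluster Tg 83.2, 53.5 and 64.3. The miR-27 Tg libraries were at 25.5, 17.9 and 8.66 RPKM. All 6 miR-24 Tg and cluster Tg libraries lay above the 12 others. This grouping was taken from the Il18r1 values themselves, and the share of all tested genes that did so was not counted. The difference from WT was 1.55 ± 0.30 in miR-24 Tg (limma adjusted p = 0.00969) and 1.15 ± 0.30 in cluster Tg (adjusted p = 0.0275). It was -0.83 ± 0.30 in miR-27 Tg (adjusted p = 0.104), with a library inside the WT range. The cluster Tg call was lost without cluster Tg replicate 1 (adjusted p = 0.145), cluster Tg replicate 3 (0.0666), WT replicate 2 (0.0721) or WT replicate 3 (0.112), and the miR-24 Tg call without WT replicate 3 (0.0537). Against DKO, cluster Tg was higher by 1.30 (adjusted p = 0.0121), and this call was lost without cluster Tg replicate 1 (0.0702) or DKO replicate 3 (0.0548).

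The miR-24 and miR-27 transgenics differed from each other in this gene. Il18r1 was lower in miR-27 Tg than in miR-24 Tg by -2.38 on the log2 scale (limma adjusted p = 0.000210), and higher in cluster Tg than in miR-27 Tg by 1.99 (adjusted p = 0.00351). Without the libraries that stand apart the differences were -1.98 (adjusted p = 8.77e-05) and 1.58 (0.00185). Both were lost when only the 2 compared genotypes were fitted (adjusted p = 0.0974 and 0.398). In miR-27 Tg, replicate 3 (8.66 RPKM) was at 0.400 times the mean of the other 2. Without miR-27 Tg replicate 1 the difference of miR-27 Tg from WT was -1.15 (adjusted p = 0.0232), and without the libraries that stand apart -0.43 (adjusted p = 0.190). Il18rap, the signalling partner, was far scarcer. It was 0.520 ± 0.0997 RPKM in WT, 3.31 ± 0.964 in miR-24 Tg, 1.76 ± 1.32 in miR-27 Tg and 4.11 ± 2.56 in cluster Tg. It was called higher in cluster Tg (1.64, adjusted p = 0.00557) and miR-24 Tg (1.48, adjusted p = 0.0199). Every WT, DKO and miR-23 Tg library had less than 1 RPKM of Il18rap, so it passed the filter for testing through the other genotypes. Il18r1 exceeded Il18rap 47.1- to 74.4-fold in WT libraries, 19.5- to 32.8-fold in miR-24 Tg, 11.8- to 27.6-fold in cluster Tg and 7.75- to 16.2-fold in miR-27 Tg.

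**Figure D2:**
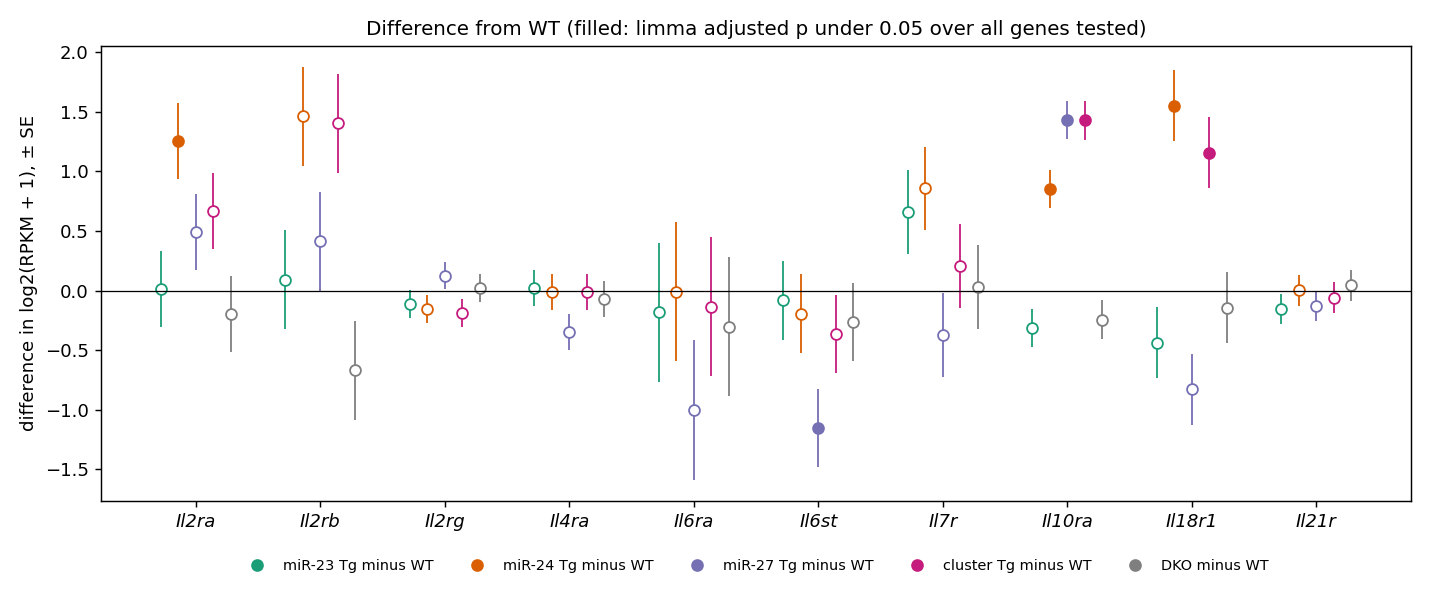
Difference from WT in log2(RPKM + 1), with bars of ± 1 SE from limma, for each receptor subunit (y axis: difference; x axis: gene) in the 5 other genotypes. Filled points have an adjusted p under 0.05. Il10ra is filled in cluster, miR-27 and miR-24 Tg, Il18r1 in cluster and miR-24 Tg, Il2ra in miR-24 Tg and Il6st, below 0, in miR-27 Tg; no point is filled in miR-23 Tg or DKO.

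Il2rb, the signalling chain shared by IL-2 and IL-15, was higher in cluster Tg than in DKO cells and stood above WT in miR-24 Tg and cluster Tg. WT libraries were at 20.5, 29.9 and 16.7 RPKM, DKO at 18.4, 14.8 and 8.49 and miR-23 Tg at 26.0, 22.3 and 21.5. miR-24 Tg libraries were at 81.2, 55.0 and 52.6 RPKM, cluster Tg at 77.1, 58.0 and 46.3 and miR-27 Tg at 56.5, 33.2 and 13.0. All miR-24 Tg and all cluster Tg libraries exceeded all WT libraries, as 17.5% and 22.1% of tested genes did, while miR-27 Tg spanned both ranges. Cluster Tg exceeded DKO by 2.07 ± 0.42 (limma adjusted p = 0.00523), and miR-24 Tg exceeded DKO by 2.13 (adjusted p = 0.00833, in a comparison where 4.87% of tested genes were called). Against WT the differences of 1.46 ± 0.42 in miR-24 Tg (adjusted p = 0.0701) and 1.41 ± 0.42 in cluster Tg (adjusted p = 0.0515) did not pass. They passed without the libraries that stand apart, at adjusted p = 0.00274 and 0.00194, as did the 0.97 of miR-27 Tg (0.0351), which was 0.41 (adjusted p = 0.518) with all libraries. In miR-27 Tg replicate 3 was at 0.291 times the mean of the other 2, and without replicate 1 the difference from WT was -0.05.

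Il2ra was the scarcest member, and CD25+ cells had been gated out. It was 0.522, 1.05 and 0.847 RPKM in WT, 0.408, 0.558 and 0.733 in DKO and 0.629, 0.838 and 0.965 in miR-23 Tg. It was 7.97, 2.201 and 1.71 RPKM in miR-24 Tg, 1.46, 1.72 and 1.38 in miR-27 Tg and 2.24, 1.41 and 1.97 in cluster Tg. Every library of the latter 3 genotypes lay above every library of the former 3, as 1.88% of tested genes did, and miR-24 Tg replicate 1 lay far above all others. Only 10 of 18 libraries reached 1 RPKM, so fold changes on the log2(RPKM + 1) scale understate the ratio. They were WT replicate 2 and all libraries of miR-24 Tg, miR-27 Tg and cluster Tg. Il2ra thus passed the filter for testing through the genotypes in which it was high, and its calls depend on that. The difference from WT was 1.25 ± 0.32 in miR-24 Tg (limma adjusted p = 0.0452), 0.67 ± 0.32 in cluster Tg (adjusted p = 0.261) and 0.49 ± 0.32 in miR-27 Tg (adjusted p = 0.339). Without miR-24 Tg replicate 1 the miR-24 Tg difference was 0.72 (adjusted p = 0.0484). The call was lost without WT replicate 1 (adjusted p = 0.171), WT replicate 2 (0.0937) or WT replicate 3 (0.112).

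Il2rg, the common gamma chain, was high and even across the study. It ran from 405 RPKM in miR-24 Tg replicate 2 through a median of 466 to 548 in miR-27 Tg replicate 3. Means were 481.5 ± 17.0 RPKM in WT, 526 ± 19.7 in miR-27 Tg and 422 ± 22.6 in cluster Tg. The cluster Tg libraries all lay below WT (-0.19, limma adjusted p = 0.427) and the miR-27 Tg libraries all above (0.13, adjusted p = 0.481), and neither passed. With Il2rg this even, the ratio of Il2rb to Il2rg followed Il2rb. It was 0.0335 to 0.0619 in WT, 0.0159 to 0.0399 in DKO and 0.0472 to 0.0630 in miR-23 Tg, and 0.124 to 0.173 in miR-24 Tg and 0.103 to 0.188 in cluster Tg. In miR-27 Tg it ran from 0.0238 to 0.110.

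Il4ra and Il21r, which pair with the common gamma chain for IL-4 and IL-21, were also even. Il4ra ran from 85.0 RPKM through a median of 115 to 148, and its means were 120.6 ± 8.33 in WT and 94.6 ± 10.9 in miR-27 Tg. All 3 miR-27 Tg libraries lay below the 3 WT libraries, at a difference of -0.35 ± 0.15 that did not pass (limma adjusted p = 0.171). Il21r ran from 108 RPKM through 129.8 to 154, and its differences from WT lay between -0.15 in miR-23 Tg and 0.04 in DKO, with adjusted p from 0.515 to 1. Its ligand Il21, by contrast, was higher than in WT (0.179 ± 0.101 RPKM) in cluster Tg (1.97 ± 0.133, adjusted p = 0.000122), miR-24 Tg (0.911 ± 0.128, adjusted p = 0.0200) and miR-27 Tg (0.754 ± 0.433, adjusted p = 0.0398). These Il21 levels were low, at 2.11 RPKM or less in every library. Il21 passed the filter for testing through genotypes in which it was high.

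Il7r, the chain specific to IL-7 and TSLP, was lower in miR-27 Tg than in miR-24 Tg and did not pass against WT. It was 232, 214 and 324 RPKM in WT, 248, 298 and 231 in DKO and 321, 283 and 272 in cluster Tg. It was 453, 412 and 516 RPKM in miR-24 Tg, 259, 481 and 511 in miR-23 Tg and 284, 265 and 97.4 in miR-27 Tg. The miR-24 Tg libraries all exceeded WT, whereas those of miR-23 Tg were split, with replicate 1 inside the WT range. The difference from WT was 0.86 ± 0.35 in miR-24 Tg (limma adjusted p = 0.251, and 0.0238 without the libraries that stand apart) and 0.66 ± 0.35 in miR-23 Tg (adjusted p = 0.726). miR-27 Tg was lower than miR-24 Tg by -1.23 ± 0.35 (adjusted p = 0.0328). Neither differed by the test from miR-23 Tg (adjusted p = 0.834 for miR-24 Tg and 0.0576 for miR-27 Tg), whose libraries overlapped both. Without miR-27 Tg replicate 3 that difference was -0.74 (adjusted p = 0.0696), and leaving out miR-24 Tg replicate 1, 2 or 3 gave adjusted p = 0.0786, 0.0651 or 0.108. The ratio of Il7r to Il2rg was 0.966 to 1.22 in miR-24 Tg, 0.442 to 0.652 in WT and 0.178 to 0.551 in miR-27 Tg.

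**Figure D3:**
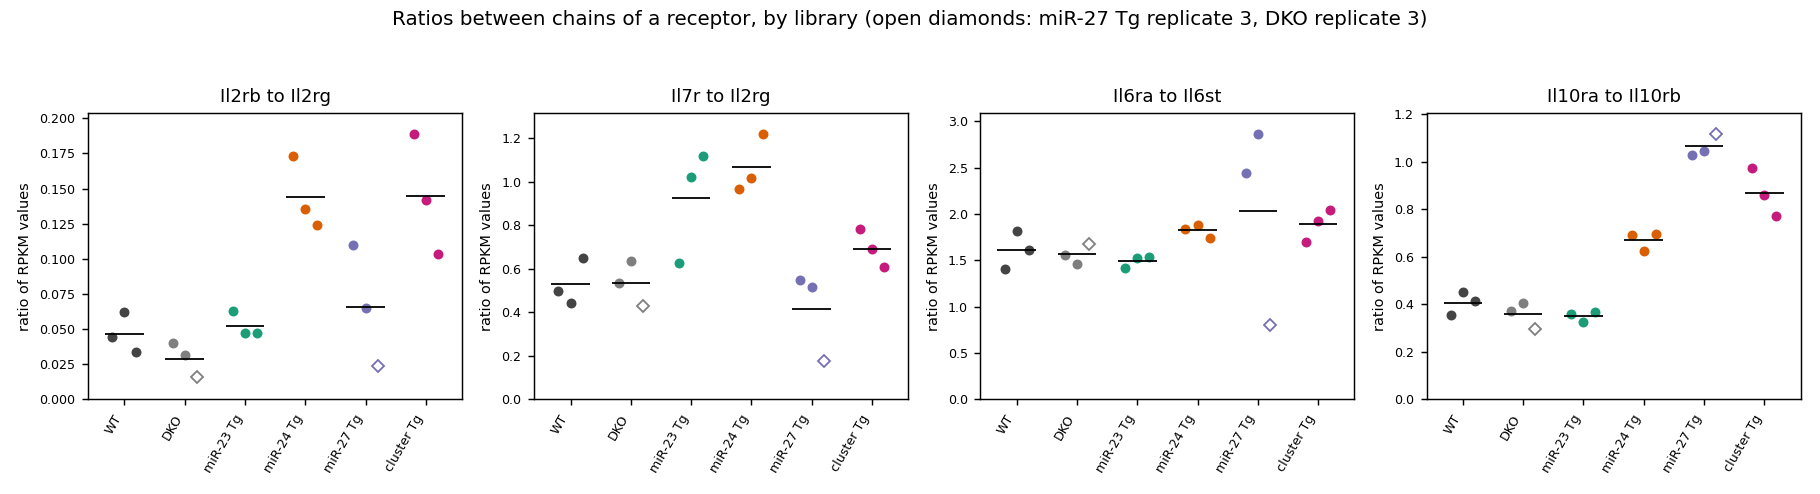
Ratio of the RPKM of paired receptor chains in each library (y axis, linear) by genotype (x axis): Il2rb to Il2rg, Il7r to Il2rg, Il6ra to Il6st and Il10ra to Il10rb. Points are libraries, lines are means of 3. Il10ra to Il10rb rises from 0.353 to 0.452 in WT to 1.03 to 1.11 in miR-27 Tg, and Il2rb to Il2rg is 0.103 or more in every miR-24 Tg and cluster Tg library.

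Il6st, the signalling chain gp130, was lower in miR-27 Tg cells. It was 86.5, 66.2 and 76.5 RPKM in WT, 78.7, 80.7 and 39.2 in DKO and 71.6, 71.6 and 71.7 in miR-23 Tg. It was 60.8, 64.1 and 74.6 RPKM in miR-24 Tg, 57.7, 59.3 and 59.3 in cluster Tg and 46.1, 48.3 and 16.7 in miR-27 Tg. The miR-27 Tg and the cluster Tg libraries all lay below those of WT, as 12.3% and 20.6% of tested genes did. miR-27 Tg differed from WT by -1.16 ± 0.33 (limma adjusted p = 0.0422) and from miR-23 Tg by -1.07 (adjusted p = 0.0396, in a comparison where 16.6% of tested genes were called). Replicate 3, at 0.354 times the mean of the other 2, set much of the size: without it and DKO replicate 3 the difference from WT was -0.68 (adjusted p = 0.000906), and without it alone -0.68 (adjusted p = 0.0804). The call was also lost without WT replicate 1 (adjusted p = 0.143), WT replicate 2 (0.0763) or WT replicate 3 (0.107). In cluster Tg the difference of -0.36 was not called with all libraries (adjusted p = 0.650) and was called without the libraries that stand apart (0.00894).

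Il6ra, the chain that binds IL-6, did not pass in any of the 15 pairs of genotypes. WT libraries were at 122, 120.2 and 123 RPKM, and the 3 cluster Tg libraries at 97.8, 114 and 121. In DKO it was 123, 118 and 65.5 RPKM and in miR-27 Tg 112, 138 and 13.5. The low values were those of the libraries that stand apart: miR-27 Tg replicate 3 was at 0.107 and DKO replicate 3 at 0.544 times the mean of the other 2 libraries. The difference of miR-27 Tg from WT was -1.01 ± 0.59 (limma adjusted p = 0.292), and over the alternatives it ran from -1.60 to 0.03, turning sign without miR-27 Tg replicate 3. The ratio of Il6ra to Il6st was 1.40 to 1.82 in WT and 1.70 to 2.04 in cluster Tg, whereas the miR-27 Tg libraries were at 2.44, 2.86 and 0.805, the last in replicate 3. In that library 7 of 10 members lay below both other miR-27 Tg libraries, 2 above both and 1 between them. In DKO replicate 3, 7 members lay below both other DKO libraries and 3 above both. The shares of all tested genes that did so were not counted.

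By comparison, the counts of members were as follows. Cluster Tg against WT had 2 of 10 members called, both higher, beside 8.48% of all tested genes (625 genes higher, 5.63%, and 316 lower, 2.85%, or 564 and 611 after quantile normalisation). The median difference was 0.10 over the members and 0.00 over all genes. miR-24 Tg had 3 called, all higher, beside 3.59% (258 genes higher, 2.32%, and 140 lower, 1.26%, or 219 and 199 after quantile normalisation), with a median of 0.43 against 0.01 over all genes. The 3 include Il2ra, which passed the filter for testing through the genotypes in which it was high. miR-27 Tg had 1 higher and 1 lower, beside 8.95% (5.77% higher and 3.18% lower), with a median of -0.24 against 0.03. miR-23 Tg had 0 members called, 0 at an unadjusted p under 0.05, beside 0.045%. DKO against WT had 0 members called, 0 at an unadjusted p under 0.05, and limma called 0% of all genes, where 81 of 11099 had an unadjusted p under 0.05. Its largest member difference was that of Il2rb (-0.67 ± 0.42, adjusted p = 1). Cluster Tg against DKO had 3 members called, all higher, beside 11.3% (793 higher, 7.14%, and 466 lower, or 665 and 744 after quantile normalisation). These comparisons share WT or cluster Tg libraries. Between transgenics, miR-27 Tg against miR-24 Tg had 3 members called beside 13%, cluster Tg against miR-27 Tg 1 beside 3.79%, and cluster Tg against miR-24 Tg 0 beside 2.22%, with 1 member at an unadjusted p under 0.05. Of 50 pairs of genotypes that were neighbours in the order of a member's means, 3 were called: cluster Tg over WT for Il18r1, and miR-27 Tg over miR-24 Tg and miR-24 Tg over WT for Il10ra.

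The predicted sites can be set beside these differences. Of the 6 members with a miR-24 match, Il2ra, Il10ra and Il18r1 were called higher in miR-24 Tg, and Il2rb (1.46), Il6st (-0.19) and Il21r (0.00) were not called. Without a miR-24 match, Il7r stood at 0.86 and Il2rg, Il4ra and Il6ra between -0.16 and -0.01. Of the 6 with a miR-27 match, Il6st was called lower and Il10ra higher in miR-27 Tg, and Il2ra (0.49), Il2rb (0.41), Il6ra (-1.01) and Il7r (-0.37) were not called. Without miR-27 Tg replicate 3, Il6ra stood at 0.03 and Il7r at 0.12. Il18r1 (-0.83), Il4ra (-0.35), Il21r (-0.13) and Il2rg (0.13) hold no miR-27 match. In miR-23 Tg, Il6ra and Il6st, which hold the miR-23 matches (an 8mer in Il6ra), stood at -0.18 and -0.08, and neither was called. The miR-23 Tg libraries all lay below those of WT in Il6ra, as 13.6% of tested genes did. No member with a miR-24 match was called lower where miR-24 was raised, beside 1.26% of all tested genes in miR-24 Tg and 2.85% in cluster Tg against WT. At shares this small a lower call among 6 members would be rare, so its absence says nothing about the sites. Il10ra, with 3 miR-24 matches and 1 miR-27 match, was called higher in all 3 genotypes that carried either. Calls among all tested genes with a match were not counted, and the part of the sites in these differences was not tested.

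Markers of other cells and states moved with the same genotypes. Of 13 tested markers of effector and memory T cells, 12 were called higher in cluster Tg, 9 in miR-24 Tg and 9 in miR-27 Tg against WT, and 0 in miR-23 Tg or DKO. Their summed RPKM was 139 to 183 in WT, 114 to 132 in DKO, 167 to 182 in miR-23 Tg, 414 to 701 in miR-24 Tg, 305 to 774 in miR-27 Tg and 575 to 1098.5 in cluster Tg. Among 10 tested markers of naive T cells, 0 were called lower against WT in any genotype. The median difference of these 10 from WT was -0.13 in cluster Tg, -0.05 in miR-24 Tg and -0.09 in miR-27 Tg. S1pr1, a member of this list, was called higher in cluster Tg (0.58, limma adjusted p = 0.0381). Of 12 tested B cell markers, 1 was called higher in cluster Tg, 8 in miR-24 Tg and 12 in miR-27 Tg. The B cell sum was 21.1 to 33.0 in WT, 29.8 to 40.9 in DKO, 31.4 to 114.5 in miR-23 Tg, 129 to 501 in miR-24 Tg, 169 to 987 in miR-27 Tg and 91.0 to 173 in cluster Tg. NK cell markers (2 of 4 tested called higher in miR-24 Tg, 1 in miR-27 Tg) summed to 42.6 to 68.4 in miR-24 Tg against 11.7 to 16.2 in WT, where Klre1 was at 0, and 11.4 to 15.3 in cluster Tg. Myeloid markers (4 of 6 called higher in miR-27 Tg, 2 in cluster Tg, 1 in miR-24 Tg) summed to 39.5 to 58.0 in miR-27 Tg, 25.3 to 43.3 in cluster Tg, 17.9 to 43.7 in miR-24 Tg and 11.4 to 21.1 in WT, where Cd14 was at 0. Neutrophil markers, of which S100a8, Retnlg, Mmp8, Ngp and Ltf were at 0 in WT, summed to 13.6 to 674 in miR-27 Tg (2 of 5 called), 3.02 to 127 in miR-24 Tg and at most 6.20 elsewhere. Of 10 tested Treg markers, 2 were called higher in cluster Tg, 2 higher and 1 lower in miR-24 Tg and 1 higher in miR-27 Tg. Of 6 tested CD8 T cell markers, 3 were called higher and 1 lower in cluster Tg, 2 higher in miR-24 Tg and 3 higher and 2 lower in miR-27 Tg. Dendritic cell markers, none of them tested, stayed at 6.43 or less in sum, and 0 of 3 tested erythroid markers were called in any of these comparisons by limma. The erythroid sum was 0.843 to 25.7 in WT, 4.84 to 59.1 in miR-24 Tg and at most 13.9 in cluster Tg, DKO and miR-23 Tg. In the miR-27 Tg libraries it was 3.00, 289 and 294. All 10 markers of CD4 T cell identity reached 1 RPKM in every library, with Cd4 at 334 to 617 RPKM and Cd3e at 267 to 565. Of these 10, Cd5 was called lower in miR-24 Tg (-0.62, limma adjusted p = 0.00911) and higher in miR-27 Tg (0.54, adjusted p = 0.0122), and the summed RPKM was 3853 to 4105 in WT and 4324 to 9292 in miR-27 Tg. The part of these other cells and states in the differences of the members was not tested.

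Some marker levels lie beside single members. Il2ra had its highest value in the library with the highest Foxp3, the lineage factor of Treg cells: in miR-24 Tg, Foxp3 was 15.9, 5.92 and 4.41 RPKM, in WT 2.59 to 2.96 and in DKO 1.04 to 1.89. The Treg markers did not move together in miR-24 Tg. Foxp3 and Nrp1 were called higher than in WT, and Gpr83 lower (1.53 against 5.67 RPKM, limma adjusted p = 0.0442). Ctla4 was 30.7, 112 and 38.7 RPKM in miR-24 Tg replicates 1, 2 and 3, and 17.4 to 38.8 in WT. Over the 18 libraries the gene most like Il2ra, by Pearson's r of log2(RPKM + 1), was Serpina3g (r = 0.90), followed by Foxp3 (0.89) and Serpinb6b (0.88). Tbx21, the factor T-bet, stood beside Il2rb at 0.300 to 0.350 RPKM in WT, 2.02 to 4.25 in miR-24 Tg, 2.06 to 4.77 in cluster Tg and 1.49 to 3.88 in miR-27 Tg. The genes most like Il2rb were Ahnak (0.97), Fam129a (0.96) and Slc9a7 (0.95). Cxcr3, a chemokine receptor of effector cells, was 0.910 to 1.86 RPKM in WT, 7.68 to 24.8 in miR-24 Tg, 6.53 to 17.8 in miR-27 Tg and 16.1 to 31.0 in cluster Tg. The genes most like Il10ra were S100a6 (0.98), Lynx1 (0.98) and Apobec2 (0.97), and S100a6 averaged 6.68 RPKM in WT, 45.9 in miR-24 Tg, 87.8 in miR-27 Tg and 94.7 in cluster Tg. The genes most like Il18r1 were Reck (0.96), Cd200r1 (0.95) and Rgs3 (0.94). These correlations are descriptions over 18 libraries that share the genotypes, the division on the second principal component and the libraries that stand apart.

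**Figure D4:**
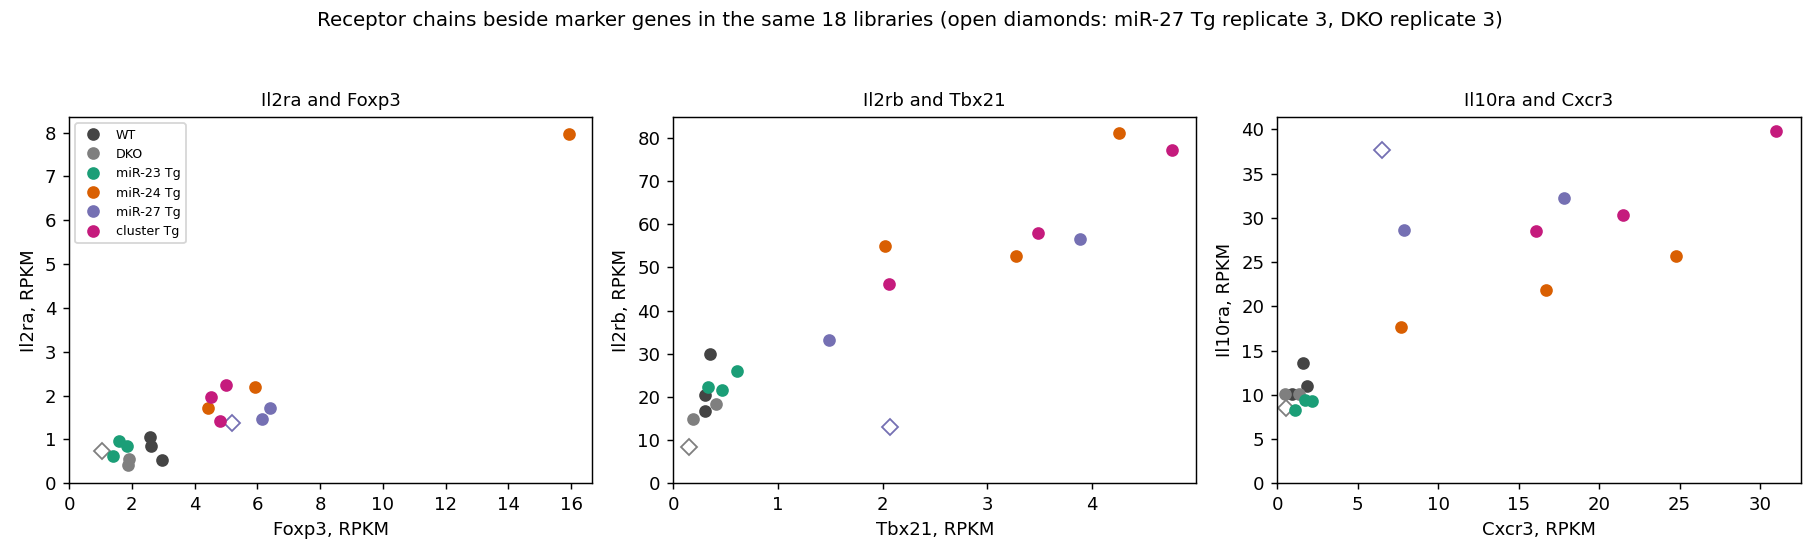
Each point is 1 of 18 libraries, coloured by genotype, with RPKM of a receptor subunit against RPKM of a marker: Il2ra and Foxp3, Il2rb and Tbx21, Il10ra and Cxcr3. WT, DKO and miR-23 Tg libraries lie at the low end of each panel, and miR-24 Tg replicate 1 (Il2ra 7.97, Foxp3 15.9 RPKM) lies alone at the top of the first.

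Of 30 other listed chains of interleukin receptors, 15 reached the level for testing. In cluster Tg against WT, 2 of the 15 were called higher, beside 5.63% of all tested genes. They were Il18rap, given above, and Il17rb, a chain of the IL-25 receptor, at 7.06 ± 2.01 RPKM against 2.58 ± 0.478 (1.15 on the log2 scale, limma adjusted p = 0.0345). In miR-24 Tg Il18rap alone was called, beside 3.59% of all tested genes. In miR-27 Tg, miR-23 Tg and DKO 0 were called, beside 8.95%, 0.045% and 0%. In cluster Tg against DKO 5 of the 15 were called, all higher, beside 7.14% of all tested genes called higher. They included Il9r, the IL-9 receptor chain (3.43 ± 0.912 against 0.315 ± 0.227 RPKM, adjusted p = 0.0312), and Il12rb2, which completes the IL-12 receptor (1.59 ± 0.675 against 0.300 ± 0.125, adjusted p = 0.0180). Both were below 1 RPKM in every DKO library and passed the filter for testing through genotypes in which they were higher. The median difference from WT over the 15 was 0.19 in cluster Tg, 0.17 in miR-24 Tg and 0.13 in miR-27 Tg.

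Downstream of these receptors, 29 of 30 listed signalling genes were tested. The list holds JAK kinases, STAT factors and their inhibitors, and also Myd88, Irak1, Irak4 and Traf6, which carry signals of the IL-18 receptor. Stat2, a mediator of interferon signalling, was higher in cluster Tg (56.0 ± 8.93 RPKM against 28.2 ± 3.27 in WT, 0.96 on the log2 scale, limma adjusted p = 0.0298) and likewise in miR-27 Tg (62.7 ± 25.7 RPKM, 1.03, adjusted p = 0.0201). Stat4, which IL-12 activates, was higher in miR-24 Tg (69.6 ± 10.8 RPKM against 42.9 ± 3.11, 0.68, adjusted p = 0.0106), as was the inhibitor Socs5 (0.62, adjusted p = 0.0205). Socs1, an inhibitor of JAK kinases that cytokines induce, was higher in miR-27 Tg (65.0 ± 7.14 RPKM against 38.0 ± 11.4, 0.79, adjusted p = 0.0377). In cluster Tg against DKO, Socs5 (0.49) and Pias4 (0.32) were called higher, beside 7.14% of all tested genes. Against WT, 1 of the 29 was called in cluster Tg beside 8.48% of all tested genes, 2 in miR-24 Tg beside 3.59% and 2 in miR-27 Tg beside 8.95%. The limma fit called none of them in miR-23 Tg or DKO, beside 0.045% and 0%. Of 12 listed ligands of the members only 3 (Il21, Il4 and Lif) reached the level for testing, and Il21 alone was called.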

How the data were processed

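Total RNA of sorted naive CD4 T cells was made into TruSeq RNA libraries, per the labels' protocols. The authors deposited 1 table of RPKM per gene and library. STAR 2.2.0c, HOMER and mm9 are named, with no roles, in the submitters' processing notes. How reads were counted, and whether by strand, is stated in none of the sources used here. Of 23953 rows, 2 with repeated symbols were dropped, and 27 symbols had been turned into dates.

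A gene was tested if 3 or more libraries reached 1 RPKM, which kept 11099. They were fitted on log2(RPKM + 1) with limma 3.58.1 (limma-trend, R 4.3.3), all 18 libraries, genotype as the only term, with Benjamini-Hochberg adjustment over all tested genes and calls at 0.05. The script was tested on simulated data. An exact permutation test of 3 against 3 cannot go below 0.1 and was not used.

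The members and gene lists were chosen with earlier results of these data known. Named were all members, up to 4 called genes of each list and the 3 genes most like each member called by the F test. 3′ UTRs are those of the GENCODE M21 transcript with the longest coding sequence. Alternatives covered pseudocount, filter, quantile normalisation, compared genotypes only, replicate block and left-out libraries. Those for direct comparisons of transgenics and for the order of the genotypes, and the averaging of miR-23 Tg columns 3 and 4, were added after the data were seen. A surface marker of the sort and its gene are not reported here.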

Additional observations from a re-analysis of the deposited data

How the results depend on the processing

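The 8 comparisons of 10 members were recomputed under each alternative. Of these 80 differences, 14 were called as reported, 29 in at least 1 setting and 3 in every setting run (Il10ra in cluster Tg against WT and against DKO, Il2rb in cluster Tg against DKO). Of 146 recomputed counts of members, 121 stayed within 1.5-fold of the reported count. Cluster Tg against WT had 2 members called as reported, 1 with no filter, 4 with only the compared genotypes and 4 without the libraries that stand apart, and 1 to 2 when single libraries were left out. miR-24 Tg against WT had 3, 5 without the libraries that stand apart, and 1 to 3. miR-27 Tg against WT had 2, 1 with no filter, 1 at a minimum of 5 RPKM, 0 with only the compared genotypes, and 1 to 3. miR-27 Tg against miR-24 Tg had 3, 1 with no filter, 0 with only the compared genotypes, and 1 to 5. Cluster Tg against miR-27 Tg had 1, 0 with only the compared genotypes, and 1 to 2. The called neighbours in the order of the genotypes were 3, 1 with no filter, 5 without the libraries that stand apart, and 2 to 4. The cause of these moves was not tested. Of 51 differences called in no setting, 23 changed sign in at least 1. Of the 29 others, sign changed, in settings without a call, for Il2rb in miR-27 Tg against WT without miR-27 Tg replicate 1 (-0.0508; 0.9658 without replicate 3), for Il2rg in miR-27 Tg against miR-24 Tg after quantile normalisation (-0.0387), and for Il6st in cluster Tg against DKO without DKO replicate 1 (0.0607) or replicate 2 (0.0786), against -0.4337 without replicate 3. Over all genes the calls of cluster Tg against WT ran from 419 to 3225, of miR-24 Tg from 180 to 1937 and of miR-27 Tg from 43 to 2218, and those of DKO from 0 to 4. Replicate numbers were not taken as pairs, since not every same-numbered pair was alike: deviations of same-numbered libraries correlated above 0.1 in 11 of 30 pairs (median 0.08, highest 0.58), against 6 of 60 pairs with different numbers (median -0.04). With the replicate number as a block, 1 member was called in miR-27 Tg against WT (Il6st at adjusted p = 0.0605), 3 in cluster Tg against WT (Il2rb at 0.0176) and 3 in miR-24 Tg against WT (Il2rb at 0.0285, Il2ra at 0.102). Il10ra in miR-27 Tg against miR-24 Tg was at 0.0599 with the block. No block was fitted for miR-23 Tg against WT, which share fewer than 2 numbers. Absolute depth is unknown, so the counting error of low genes such as Il2ra and Il21 cannot be given.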

Other observations

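Among 17 listed receptor chains of interferons and other haematopoietins, 7 were tested. Csf2ra, the GM-CSF receptor chain, was lower than in WT (4.07 ± 1.00 RPKM) in cluster Tg (1.24 ± 0.382, -1.17 on the log2 scale, limma adjusted p = 0.00325) and in miR-27 Tg (1.92 ± 0.916, -0.83, adjusted p = 0.0256). Ifnar2, a chain of the type I interferon receptor, was higher than in WT (33.8 ± 3.14 RPKM) in cluster Tg (47.1 ± 1.69, adjusted p = 0.00914) and miR-27 Tg (45.0 ± 1.44, adjusted p = 0.0215). Ifngr2, a chain of the interferon gamma receptor, was lower in cluster Tg (32.0 ± 4.35 RPKM) than in DKO (54.3 ± 5.76, -0.75, adjusted p = 0.0265). By limma 0 of the 7 were called in miR-24 Tg, miR-23 Tg or DKO against WT. For both chains that moved in miR-27 Tg, the comparison with WT crosses the division of libraries on the second principal component. The division and the genotype cannot be told apart there. In miR-24 Tg, Csf2ra was at 3.77 ± 0.166 RPKM and Ifnar2 at 33.8 ± 3.57. The part of the division was not tested.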
